A study of Mus musculus with 72 samples.

Results

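The joining of a single Cas9 break on mouse chromosome 14 under aphidicolin was followed in 7 DNA libraries, 3 from neural progenitor cells that lack Xrcc4 and p53 and 4 from wild-type neural stem and progenitor cells. They were chosen by title from the 60 junction (LAM-HTGTS) libraries among the 72 samples of the series, taking every library with the chr14 bait, aphidicolin and no ART558 from the parental deficient cells of the promoter/enhancer-deletion collection and from the wild-type cells of the inhibitor collection. The cells of all 7 libraries were nucleofected with Cas9 and the guide, and then received 0.5 µM aphidicolin for 72 h followed by 0.25 µM for 24 h. The deficient cells were neural progenitors differentiated from 1 embryonic stem cell line of genotype NestinCre+Xrcc4-/-p53-/-, whereas the wild-type cells were primary cells taken from late embryonic C57BL/6J mouse brain. Genotype, cell source, collection and sequencing run therefore change together and cannot be told apart, nor can the loss of Xrcc4 be told apart from the loss of p53. Cell identity was not checked, since the libraries hold DNA junctions and no expression. By their read names, deficient replicates 1 and 2 share a sequencing run, deficient replicate 3 comes from another, and the 4 wild-type libraries come from yet another. The study describes its wild-type repeats as biological and those of the deficient cells, for other baits, as technical in one place and biological in another. The labels do not say which libraries came from separate cultures, so p-values measure the spread between libraries, which may be technical.

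Xrcc4 is the partner of DNA ligase IV, and the pair seals the ends of double-strand breaks in classical non-homologous end joining (NHEJ), which needs little or no base pairing between the ends. When this ligation step is missing, breaks are joined by alternative end joining, in which the ends are first trimmed and then paired over a few matching bases, termed microhomology. p53 stops or removes cells that carry unrepaired breaks, and its loss lets NHEJ-deficient neural progenitors survive. Aphidicolin slows replicative DNA polymerases, and in neural progenitors it raises breakage within long, late-replicating neuronal genes, known as recurrent DNA break clusters (RDCs).

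The assay, LAM-HTGTS, is a linear-amplification method for mapping junctions across the genome. It reads from a nested primer across the Cas9 break, termed the bait, into whatever DNA the bait end was joined to, termed the prey. The bait sequence is shown first because every measure below is counted from it. It covers chr14:83268683-83268852 on the plus strand of GRCm38/mm10 (RefSeq) and runs from the first base of the nested primer to the PAM, with the guide's target in capitals.
bait: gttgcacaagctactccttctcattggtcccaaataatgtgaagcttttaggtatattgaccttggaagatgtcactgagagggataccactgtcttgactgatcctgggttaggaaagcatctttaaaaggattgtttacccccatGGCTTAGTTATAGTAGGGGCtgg
Cas9 cuts 3 bases before the PAM, so that an unresected bait is 164 bp long and ends at position 83268846. The break lies in no annotated gene, with the protein-coding genes Olfm4 at 3246 kb to the left and Pcdh17 at 1175 kb to the right.

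The deficient libraries held 7563, 10262 and 8790 junctions on the 19 autosomes, X and Y, and the wild-type libraries held 4515, 4289, 3286 and 3639. Junctions on other chromosomes, termed translocations, numbered 5825 in the deficient and 10044 in the wild-type libraries. Several technical values also moved with genotype. Reads whose pairs could not be merged made up 1.92% to 2.86% of junctions in the deficient libraries and 9.41% to 13.0% in the wild-type libraries. Translocations that repeated a junction of the same library made up 0.822% to 2.55% and 11.9% to 17.0%. The pipeline's uncut flag was set on 0.784% to 0.916% and on 9.46% to 11.9% of junctions. The median length of the aligned prey was 68 to 81 bp and 85 to 90 bp. The part of these values in the results was not tested, except that counting each repeated junction once was tried as an alternative.

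In the deficient cells most bait ends were joined close to the break, and in the wild-type cells most were joined to other chromosomes. Translocations made up 19.3%, 20.7% and 25.4% of junctions in the deficient libraries and 63.2%, 66.3%, 62.4% and 63.1% in the wild-type libraries. The 3 deficient values were close together and all far below the 4 wild-type values. The group means were 21.8% ± 3.21 (SD, n = 3) and 63.8% ± 1.74 (SD, n = 4), a difference of -41.9 percentage points. Junctions within 1 Mb of the cut made up 75.0%, 73.1% and 66.7% in the deficient libraries against 28.5%, 25.0%, 29.4% and 28.6% in the wild-type libraries. Junctions on chromosome 14 beyond 1 Mb made up 5.65%, 6.14% and 7.87% against 8.33%, 8.67%, 8.22% and 8.33%. The wild-type cells were thus higher in both long-range classes, without overlap between the groups. With 3 libraries against 4 there are 35 ways to assign the labels, so the two-sided exact permutation test could not give a p below 0.0571. Each comparison of all 3 with all 4 libraries described here as without overlap reached that value, and none could pass 0.05. Over the 17 measures compared in this way, 12 were without overlap, each with a Benjamini-Hochberg adjusted exact permutation p of 0.0810. With deficient replicates 1 and 2 alone, which share a run, translocations differed by -43.7 percentage points, still without overlap (exact permutation p = 0.133, the smallest that 2 libraries against 4 allow).

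**Figure D1:**
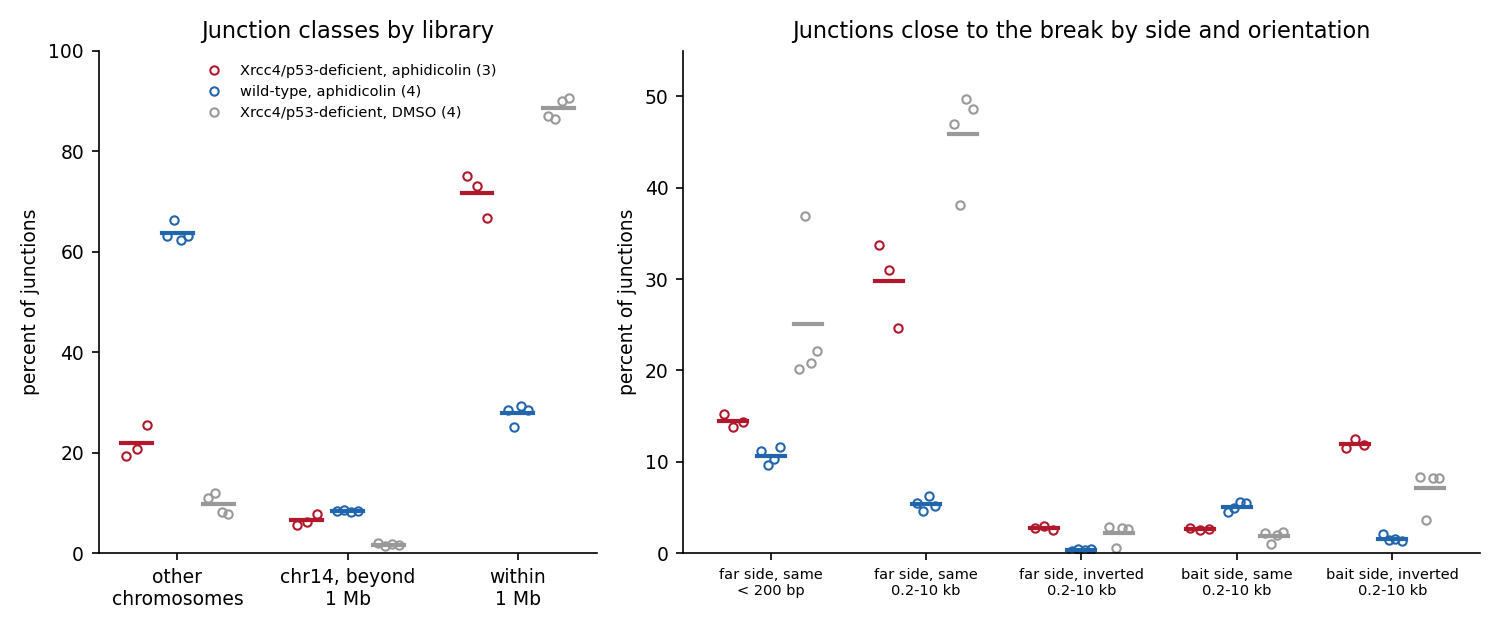
Junction classes as percent of junctions in each library (circles) with group means (bars), for Xrcc4/p53-deficient cells in aphidicolin, wild-type cells in aphidicolin and Xrcc4/p53-deficient cells in DMSO. Left, the 3 distance classes, where translocations lie between 19.3% and 25.4% in the deficient and between 62.4% and 66.3% in the wild-type aphidicolin libraries. Right, junctions close to the break by side and orientation, where "same" means the orientation of the intact chromosome.

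Junctions near the break were then split by side and orientation. A junction on the far side of the cut in the orientation of the intact chromosome is a deletion, and its length is given here as the distance from the cut to the prey. Deletions of 200 bp to 10 kb made up 33.7%, 31.0% and 24.6% of junctions in the deficient libraries and 5.47%, 4.59%, 6.21% and 5.19% in the wild-type libraries. They were 5.55 times as frequent in the deficient cells by group mean, and no wild-type library came near the lowest deficient library. Shorter deletions, under 200 bp, were closer, at 15.3%, 13.8% and 14.3% against 11.1%, 9.63%, 10.3% and 11.6%. Even so, the groups did not overlap. The median deletion was 677, 681 and 502 bp in the deficient libraries and 66.5, 60, 90.5 and 56.5 bp in the wild-type libraries. Deletions of 10 kb to 1 Mb were rarer in both, at 1.45% ± 0.119 (SD, n = 3) and 0.479% ± 0.152 (SD, n = 4), and were also higher in the deficient cells without overlap.

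Inverted junctions, in which the prey runs against the orientation of the intact chromosome, separated the genotypes by wider ratios than deletions of that length did. On the bait side of the cut, where the prey runs back across the primer's own side, inverted junctions of 200 bp to 10 kb made up 11.5%, 12.5% and 11.8% of junctions in the deficient libraries against 2.06%, 1.47%, 1.55% and 1.29% in the wild-type libraries. On the far side they made up 2.72%, 2.99% and 2.53% against 0.199%, 0.443%, 0.304% and 0.467%. By group mean these were 7.49 and 7.77 times as frequent in the deficient cells. The opposite order was found for 1 class only among the 5 plotted, bait-side junctions in the same orientation, at 2.71%, 2.54% and 2.65% in the deficient libraries against 4.45%, 4.90%, 5.60% and 5.44% in the wild-type libraries. Most of these wild-type junctions lay 300 to 1000 bp from the cut, a bin that held 3.63%, 3.59%, 4.41% and 4.12% of wild-type junctions and 1.28%, 1.15% and 1.22% of deficient junctions.

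**Figure D2:**
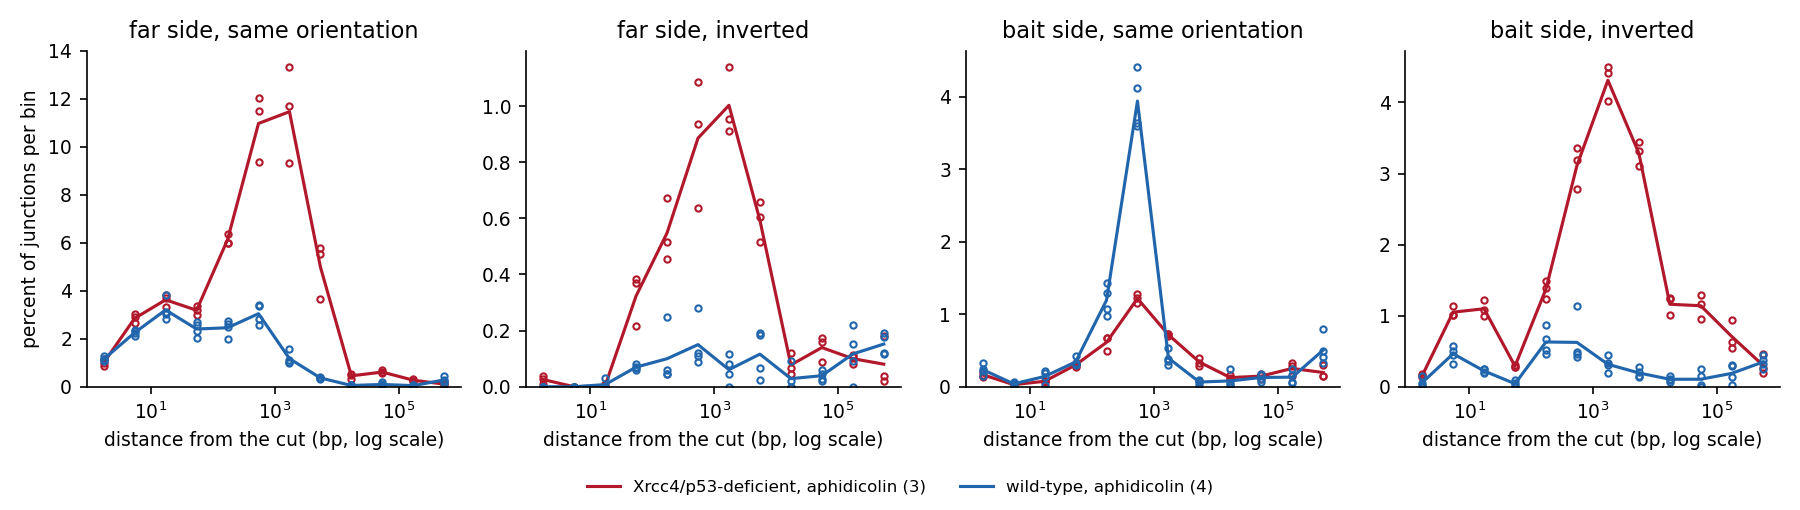
Percent of junctions per distance bin against distance from the cut in bp (log scale) for each side and orientation, with libraries as circles and group means as lines. Each panel has its own vertical scale. Far-side deletions and both inverted classes peak between 300 and 10000 bp in the deficient cells, and the peak of bait-side junctions in the same orientation at 300 to 1000 bp is higher in the wild-type cells.

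Microhomology at the junctions was compared next, over junctions with 0 to 10 bp of shared bases and without inserted bases. Direct joining, with no shared base, was less frequent in the deficient cells, and joining over 2 or 3 shared bases was more frequent. Among junctions more than 1 Mb from the cut, direct joining made up 18.5%, 17.6% and 18.1% in the deficient libraries and 28.0%, 25.6%, 22.7% and 24.5% in the wild-type libraries. The deficient libraries were all below the lowest wild-type library, with means of 18.1% ± 0.466 (SD, n = 3) and 25.2% ± 2.22 (SD, n = 4). Joining over exactly 2 bp made up 22.3%, 23.2% and 20.5% against 15.6%, 15.4%, 16.1% and 15.2%. Longer microhomology of 5 to 10 bp did not separate the groups, at 15.1%, 14.1% and 17.5% against 19.2%, 16.9%, 21.8% and 20.3%. The mean length was the same to 2 decimals, 2.50 bp in both groups (exact permutation p = 0.971, adjusted 0.971), so the mean hides the difference at 0 and 2 bp.

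Within 1 Mb of the cut the separation was wider. Direct joining made up 11%, 11.9% and 10.1% there in the deficient libraries and 24.7%, 25.0%, 26.6% and 26.2% in the wild-type libraries. The mean microhomology was 2.32, 2.33 and 2.44 bp against 1.94, 1.92, 1.92 and 1.84 bp, also without overlap. In the deficient cells direct joining was thus 9.89, 7.55 and 10.1 percentage points more frequent among translocations than within 1 Mb, while in the wild-type cells this difference was 2.66, 0.313, -4.01 and -2.43 points. The difference of these differences was 10.0 points, without overlap, but it turned to -26.1 points when only bait ends that had lost 0 to 19 bp were counted. Chromosome 14 junctions beyond 1 Mb resembled the near class in the deficient cells, with direct joining at 10.1%, 11.2% and 11.3% against 33.4%, 28.1%, 23.6% and 30.8% in the wild-type cells.

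**Figure D3:**
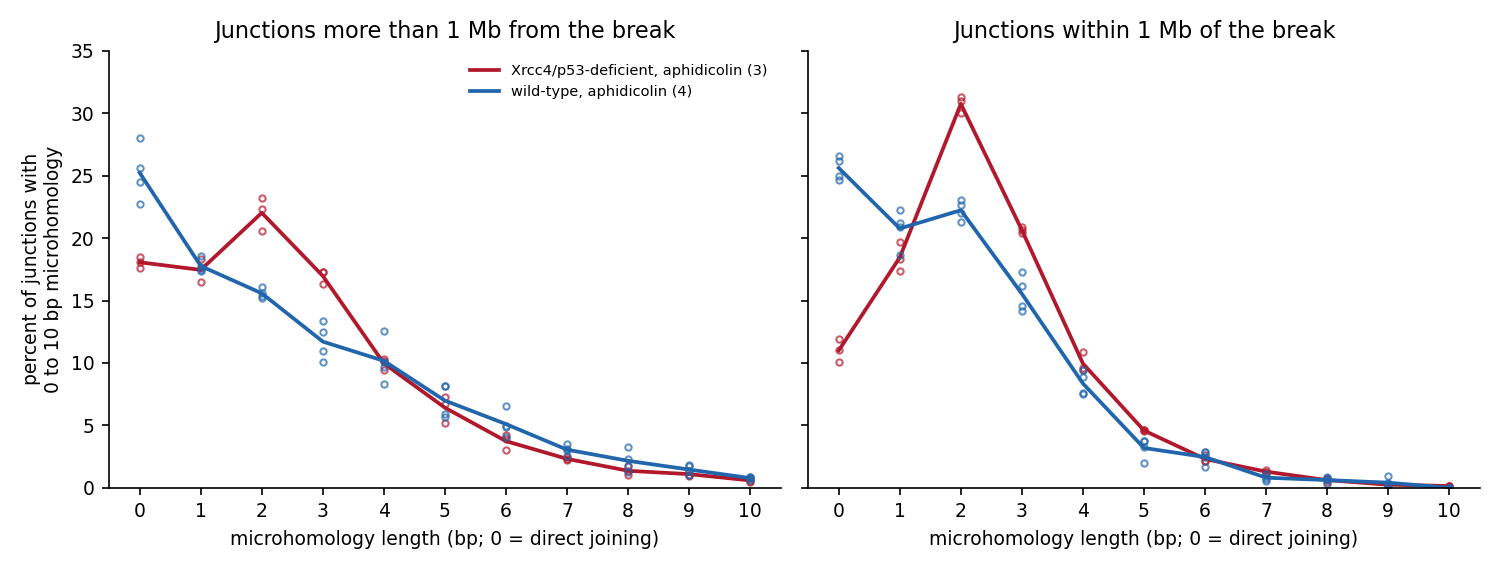
Percent of junctions at each microhomology length in bp, from 0 (direct joining) to 10, for junctions more than 1 Mb from the break (left) and within 1 Mb (right), with libraries as circles and group means as lines. In both panels the deficient line is lower at 0 bp and higher at 2 and 3 bp.

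A few short deletions show what such microhomology looks like at the break. They are the 3 most frequent deletions in the deficient cells among those with prey under 200 bp from the cut, and the 18 bp deletion was also the most frequent in the wild-type cells. Their values are a description. Each line gives the plus strand around the break with both copies of the repeat in capitals. The deletion removes 1 copy and the bases between.
18 bp deletion over TTAT: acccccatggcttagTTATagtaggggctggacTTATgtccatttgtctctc
17 bp deletion over GGCT: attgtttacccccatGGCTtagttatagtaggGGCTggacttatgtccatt
68 bp deletion over TCTTTA: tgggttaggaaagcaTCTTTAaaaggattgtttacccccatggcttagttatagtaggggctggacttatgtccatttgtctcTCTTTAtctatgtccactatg
As a percent of all deletions with prey under 200 bp from the cut, the 18 bp deletion made up 0.260%, 0.141% and 0.476% in the deficient libraries and 0.795%, 0.484%, 1.47% and 1.18% in the wild-type libraries. The 17 bp deletion made up 0.184% ± 0.0492 (SD, n = 3) and 0.559% ± 0.219 (SD, n = 4). The 68 bp deletion made up 0.211% ± 0.0937 (SD, n = 3) and 0.168% ± 0.224 (SD, n = 4), and it was not found in 2 wild-type libraries. No single repeat accounted for more than a small share of the deletions in either genotype.

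Insertions, that is bases found in neither bait nor prey, were not separated by genotype. They were present in 15.7%, 16.5% and 15.3% of junctions more than 1 Mb away in the deficient libraries and in 16.8%, 16.9%, 15.9% and 20.1% in the wild-type libraries. The lowest wild-type library lay within the deficient range (exact permutation p = 0.114, adjusted 0.139). Insertions of 1 to 3 bp were slightly lower in the deficient cells without overlap, at 6.04%, 6.67% and 6.45% against 6.97%, 7.21%, 7.20% and 7.08%. Within 1 Mb the insertion share was 22.7% ± 0.786 (SD, n = 3) and 23.2% ± 1.91 (SD, n = 4), and the groups overlapped.

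Bait-end loss, the number of bases missing between the Cas9 cut and the end of the bait, was lower in the deficient cells at junctions more than 1 Mb away. The mean loss was 48.2, 46.0 and 53.6 bp in the deficient libraries and 65.8, 68, 64.5 and 72.4 bp in the wild-type libraries. The medians were 44, 43 and 46 bp against 77, 76, 75 and 81 bp, again with all deficient libraries below all wild-type libraries. The difference of the means was -18.4 bp over these junctions, but it turned to 4.67 bp when only direct joins were counted, with 57.6 bp lost in the deficient and 52.9 bp in the wild-type cells and the groups overlapping (exact permutation p = 0.229). The wild-type cells exceeded the deficient cells at both extremes of loss. Ends exactly at the cut made up 10.2%, 8.74%, 10.5% and 9.16% in the wild-type libraries and 2.97%, 3.33% and 2.60% in the deficient libraries. Ends that had lost 60 bp or more made up 61.7%, 63.2%, 59.6% and 68.4% against 43.6%, 39.2% and 45.1%. The deficient cells exceeded the wild-type cells between these extremes, with 1 to 19 bp lost in 30.8%, 32.3% and 28.1% of junctions against 9.32%, 7.96%, 10.3% and 6.81%. This was the largest ratio among the 4 bait-end classes, 3.54-fold by group mean. Ends with 20 to 59 bp lost made up 20.9%, 23.7% and 23.0% against 15.2%, 17.4%, 16.1% and 14.1%.

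Several distal bait ends recurred at the same bases in both genotypes. Ends at 44, 81 and 90 bp from the cut are shown in the bait up to the cut, with the last 4 bases before each end in capitals.
bait to the cut: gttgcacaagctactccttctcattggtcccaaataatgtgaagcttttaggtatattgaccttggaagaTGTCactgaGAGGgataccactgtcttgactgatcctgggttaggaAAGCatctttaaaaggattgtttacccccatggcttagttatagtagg
The end at 44 bp, after AAGC, made up 2.36% ± 0.395 (SD, n = 3) of deficient and 2.60% ± 0.471 (SD, n = 4) of wild-type junctions beyond 1 Mb. The end at 81 bp, after GAGG, made up 3.07% ± 0.438 (SD, n = 3) and 2.96% ± 0.417 (SD, n = 4). The end at 90 bp, after TGTC, made up 2.59% ± 0.378 (SD, n = 3) and 2.49% ± 0.306 (SD, n = 4). At these 3 bases the genotypes differed by less than the spread between libraries, unlike at the cut itself. Other distal ends were less alike, and their values are a description. The end at 94 bp made up 0.867% ± 0.203 (SD, n = 3) of deficient and 1.92% ± 0.907 (SD, n = 4) of wild-type junctions, that at 105 bp 0.703% ± 0.461 (SD, n = 3) and 1.63% ± 0.332 (SD, n = 4), and that at 111 bp 1.54% ± 0.563 (SD, n = 3) and 2.35% ± 0.442 (SD, n = 4).

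Direct joining depended on where the bait ended. At ends exactly at the cut, direct joining made up 31.4%, 40.8% and 46.2% in the deficient libraries and 69.7%, 70.3%, 69.9% and 76.1% in the wild-type libraries. At ends with 1 to 19 bp lost it made up 10.6%, 11.9% and 11% against 25.6%, 24.7%, 20.2% and 20.2%. At ends with 20 to 59 bp lost it made up 16.3%, 13.2% and 13% against 17.8%, 18.4%, 16.9% and 17.8%, a smaller difference of -3.58 percentage points but still without overlap. At ends with 60 bp or more lost the groups overlapped, at 24.1%, 23.1% and 23.2% against 24.9%, 22.0%, 17.3% and 19.2% (exact permutation p = 0.286). Within 1 Mb of the cut the distal ends did separate the groups, with direct joining at 12.7% ± 1.55 (SD, n = 3) against 29.0% ± 3.70 (SD, n = 4) for ends with 60 bp or more lost. When junctions were limited to bait ends with 0 to 19 bp lost, a limit chosen after seeing these values, direct joining beyond 1 Mb was 13.9% ± 1.08 (SD, n = 3) against 52.0% ± 4.18 (SD, n = 4). Translocations under the same limit made up 9.98%, 12.4% and 14.9% of junctions in the deficient libraries and 40.6%, 43.3%, 42.5% and 40.7% in the wild-type libraries.

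**Figure D4:**
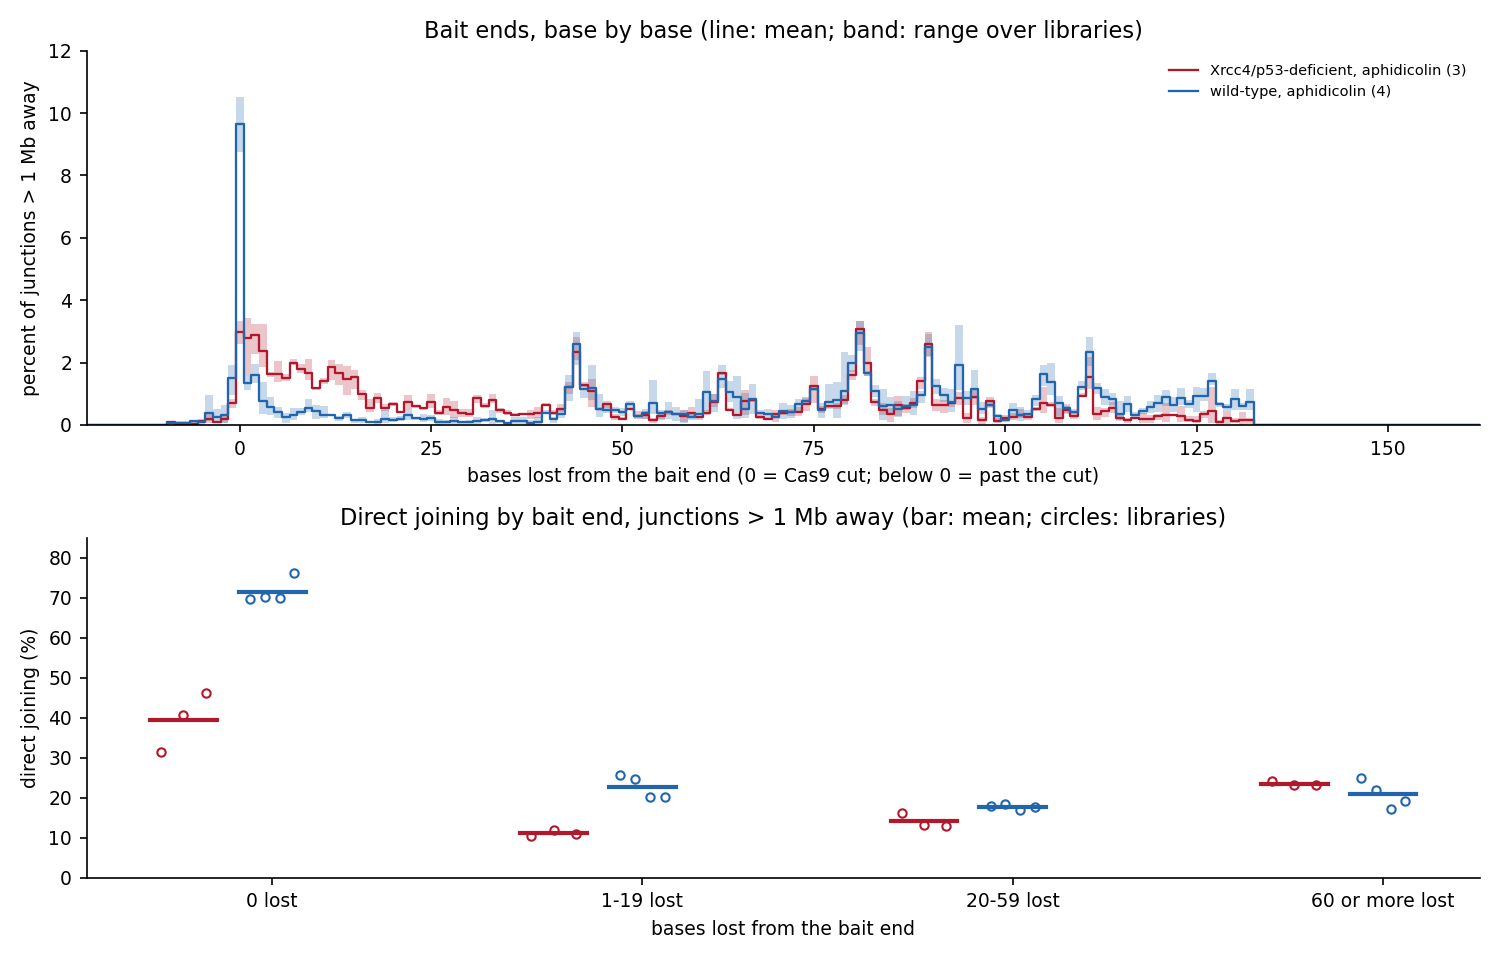
Top, percent of junctions more than 1 Mb away that end at each base of the bait, counted in bp lost from the Cas9 cut, with group means as lines and the range over libraries as bands. Bottom, direct joining in percent by bait-end class, with libraries as circles and group means as bars. Wild-type ends peak at 0 bp, deficient ends spread over 1 to 19 bp, both genotypes share peaks at 44, 81 and 90 bp, and direct joining separates the genotypes at 0, at 1 to 19 and at 20 to 59 bp but not at 60 bp or more.

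RDC density was measured in 1 Mb windows centred on the 109 RDCs that the study lists, of which 103 lie on other chromosomes. The lists hold 42 RDCs in constant-timing regions (CTRs), where replication forks converge late, 65 in timing-transition regions (TTRs), where forks run one way, and 2 placed in neither. The study took RDC positions from experiments in Xrcc4/p53-deficient progenitors, so a higher density in these cells is not independent evidence of its direction. Density is given as junctions per 1000 translocations per Mb. In CTR windows it was 0.931, 1.45 and 0.722 in the deficient libraries and 0.449, 0.397, 0.550 and 0.391 in the wild-type libraries. In TTR windows it was 0.83, 0.879 and 0.880 against 0.401, 0.369, 0.330 and 0.379. Both lists were higher in every deficient library than in any wild-type library, 2.31-fold for CTRs and 2.33-fold for TTRs by group mean. The 2250 other 1 Mb windows held 0.387, 0.376 and 0.387 against 0.400, 0.404, 0.394 and 0.403, so that the wild-type RDC windows lay at the level of the other windows. The log2 ratio of RDC to other windows was 1.19, 1.55 and 1.07 in the deficient libraries and 0.08, -0.07, 0.14 and -0.03 in the wild-type libraries. These densities are shares of the translocations, which are themselves fewer in the deficient cells. Per 1000 of all junctions the groups overlapped, and the difference turned to -0.0631 for CTRs and -0.0472 for TTRs.

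Bait ends near the cut raised the RDC share in both genotypes. With 0 to 19 bp lost, the log2 ratio of RDC to other windows was 2.12, 2.60 and 2.04 in the deficient libraries and 0.55, 0.37, 1.23 and 1.14 in the wild-type libraries, so each wild-type library was then above 0. The groups still did not overlap. Over all bait ends, direct joining within RDC windows was 15.4%, 13.6% and 16.2% in the deficient libraries and 25.9%, 20%, 28.6% and 26.0% in the wild-type libraries. Elsewhere on other chromosomes it was 20.7% ± 0.662 (SD, n = 3) and 24.7% ± 2.23 (SD, n = 4), also without overlap. The difference between RDC windows and elsewhere overlapped between the genotypes (-6.06 points, exact permutation p = 0.114, adjusted 0.139).

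**Figure D5:**
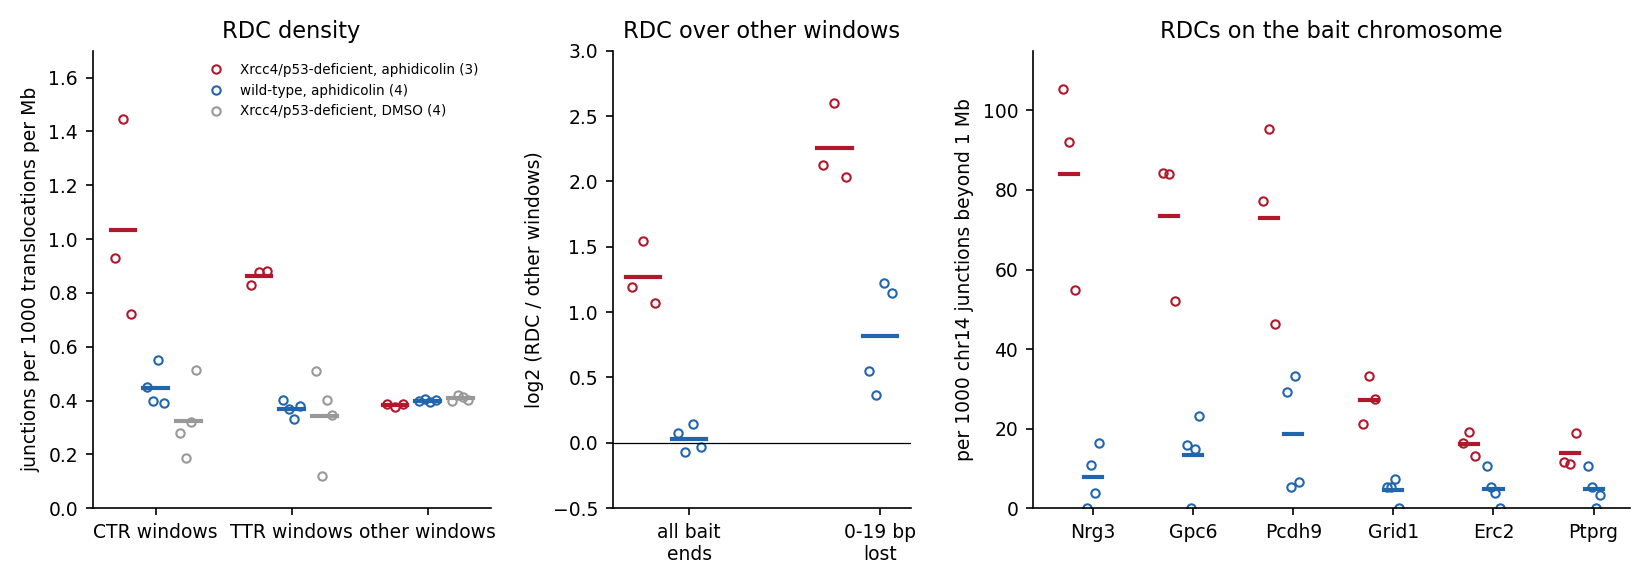
Left, RDC density as junctions per 1000 translocations per Mb in CTR, TTR and all other 1 Mb windows. Middle, log2 of RDC over other windows with all bait ends and with 0 to 19 bp lost. Right, the 6 RDCs on chromosome 14 as junctions per 1000 chromosome 14 junctions beyond 1 Mb. Circles are libraries and bars are group means. Deficient aphidicolin libraries lie above wild-type libraries in every panel except in the other windows.

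Window by window, 22 of the 103 RDC windows had all 3 deficient libraries above all 4 wild-type libraries, and 0 had the reverse order. Over all 2353 windows these shares were 4.16% and 0.977%, and over the 2250 windows outside RDCs they were 3.38% and 1.02%. CTR windows contributed 9 of 39 and TTR windows 13 of 62. Of the 103 windows, 79 had the higher mean in the deficient cells and 24 in the wild-type cells. Single windows held few junctions, 983 over all 103 RDC windows, so that only 5 RDC windows reached the 20 junctions needed for a test. A limma fit covered these 5 and the 14 other windows that reached it. After Benjamini-Hochberg adjustment, 6 of the 19 windows were higher in the deficient cells (31.6%) and 4 were higher in the wild-type cells (21.1%). Of the 6, 4 were RDC windows, those of Auts2, Ptprt, Naaladl2 and Cdh13. These 4 windows reached 20 junctions mainly through the deficient libraries, where they are high, so neither their number nor their p-values of 0.00115, 0.00614, 0.0165 and 0.0235 (limma, adjusted) support anything about RDCs. When all 2353 windows were fitted with no minimum of junctions, 4 (0.17%) were called as higher in the deficient cells, and 3 of these were RDC windows, Auts2, Ctnna2 and Naaladl2, and Ptprt and Cdh13 were not. The adjusted p-values beside single windows in the text that follows are from that fit unless the 19 windows are named.

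Auts2, a regulator of neuronal gene expression whose window is chr5:131400001-132400000, held 4.11, 3.76 and 5.81 junctions per 1000 translocations in the deficient libraries and 1.75, 0.352, 0.488 and 0 in the wild-type libraries. It rose by 2.91 ± 0.689 (SE) on the log2 scale with a limma adjusted p of 0.0198. Ptprt, a receptor tyrosine phosphatase in chr2:161400001-162400000, held 2.74, 4.23 and 2.68 against 0.351, 0, 0.488 and 0.436, and did not pass, with a limma adjusted p of 0.0897. Both had every deficient library above every wild-type library. Naaladl2 held 1.37, 6.58 and 1.79 against 0, 0, 0.488 and 0, with a limma adjusted p of 0.0498. Replicate 2 held 14 of its 20 deficient junctions. Cdh13, an atypical cadherin anchored to the membrane by a lipid, held 2.74, 4.23 and 1.79 against 1.05, 0.352, 0 and 1.74, with a limma adjusted p of 0.556. Sox5, a transcription factor gene and the fifth RDC window tested, held 0.685, 0.939 and 0.894 against 2.80, 1.05, 1.95 and 0 and did not pass even among the 19 windows (limma adjusted p = 0.949). In fits with the minimum of 20, Naaladl2 and Ptprt fell under 20 junctions, and were not tested, when any 1 deficient library was left out, and Cdh13 was not called, or fell below 20 junctions, in 5 of the 7 fits that left out 1 library.

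Ctnna2, whose protein αN-catenin ties cadherins to actin, held 19 junctions and so missed the minimum of 20. Its window, chr6:77000001-78000000, held 5, 9 and 4 junctions in the deficient libraries and 1, 0, 0 and 0 in the wild-type libraries. With no minimum it rose by 3.61 ± 0.874 (SE) on the log2 scale with a limma adjusted p of 0.0214. The ratio of shares was 31.0, with a 95% exact interval of 4.90 to 1293 that covers counting error only. It is 1 of 14 RDCs off chromosome 14 that the study singled out for the wild-type chr14 experiments, a choice made on these same wild-type libraries. Of these 14, the windows of Csmd1, Ctnna2 and Mdga2 were higher in the deficient cells without overlap, and 10 had the higher mean there. Csmd1, which encodes a large membrane protein with CUB and Sushi domains, held 1.37, 2.35 and 1.34 per 1000 against 0, 1.05, 0 and 1.31. Mdga2, an immunoglobulin-domain protein of synapses, held 2.05, 2.35 and 1.34 against 0, 0.352, 0.488 and 0.436. The other 11 overlapped. Grik2, a kainate receptor subunit, was the only 1 of the 14 with no junction in the deficient libraries, and held 3, 3, 0 and 2 in the wild-type libraries.

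Other windows without overlap held 20 junctions or fewer and are named only for that order, so their values are a description. Sdk1, an immunoglobulin-type adhesion protein of synapses, held 4, 3 and 4 junctions in the deficient libraries and 0, 0, 0 and 1 in the wild-type libraries. Erbb4, the receptor of neuregulins such as Nrg3, held 1, 5 and 4 against 1, 1, 1 and 0. Prkg1, a cyclic GMP-dependent protein kinase, held 4, 8 and 2 against 1, 0, 1 and 0. Nkain2, which encodes a partner of the sodium pump, held 2, 4 and 6 against 0, 1, 0 and 1. Csmd2, a relative of Csmd1, held 2, 2 and 6 against 0, 0, 0 and 1, and Astn2, of the astrotactin family that acts in neuronal migration, held 1, 5 and 3 against 0, 1, 0 and 0. The wild-type libraries had more translocations in total, so these counts understate the difference in shares. Dmd on the X chromosome, the dystrophin gene, held 1, 2 and 1 against 0, 0, 0 and 1, which shows how few junctions such an order can rest on.

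RDC genes were also grouped by what their proteins do, and each group is described by its windows. These counts stand beside those over all 103 windows, of which 79 had the higher mean in the deficient cells and 22 were without overlap, and no group was tested against the others. All 4 receptor tyrosine phosphatase windows off chromosome 14 had the higher mean in the deficient cells, and 2 were without overlap, Ptprt and Ptprd. Their joint density was 1.37, 1.41 and 1.12 against 0.175, 0.176, 0.366 and 0.109 per 1000 translocations per Mb. Of the 8 windows of cadherins, protocadherins, catenins, Pard3 and Pard3b, 6 had the higher mean in the deficient cells and 3 were without overlap. Their densities were 1.2, 1.64 and 0.894 against 0.307, 0.352, 0.366 and 0.762. Synaptic organizers and scaffolds with Cacna1c and Dpp10 had 8 of 9 windows higher by mean and densities of 1.11 ± 0.0568 (SD, n = 3) and 0.435 ± 0.126 (SD, n = 4). Transcription factor and chromatin genes had 10 of 11 higher by mean, at 1.03 ± 0.244 (SD, n = 3) and 0.382 ± 0.144 (SD, n = 4). These 4 groups were without overlap as sums. Immunoglobulin-type adhesion and guidance genes with Erbb4 and Dab1 (9 of 11 higher by mean) overlapped. So did common fragile site genes (7 of 8) and CUB and Sushi domain genes with Lrp1b (3 of 4). Glutamate receptor genes with their partners (2 of 4) and adhesion G protein-coupled receptors with teneurin (2 of 5) were divided evenly or nearly so, with densities of 0.499 ± 0.243 and 0.673 ± 0.352 (SD, n = 3) against 0.622 ± 0.279 and 0.513 ± 0.261 (SD, n = 4).

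On chromosome 14 itself 6 RDCs lie between 10.1 and 71.3 Mb from the break, and all 6 were higher in the deficient cells without overlap. This order was found in 9.73% of all 113 chromosome 14 windows of 1 Mb beyond 1 Mb from the cut, and in 4.67% of the 107 outside RDCs. Windows are counted per 1000 chromosome 14 junctions beyond 1 Mb. Nrg3, the gene of a neuregulin that binds the Erbb4 receptor, lies in chr14:38400001-39400000 and held 105, 92.1 and 54.9 in the deficient libraries against 0, 10.8, 3.70 and 16.5 in the wild-type libraries. These are 45, 58 and 38 junctions against 0, 4, 1 and 5, and every deficient value was more than 3 times the highest wild-type value. Gpc6, a glypican, held 84.3, 84.1 and 52.0 against 16.0, 0, 14.8 and 23.1. Pcdh9, a protocadherin and the RDC nearest to the break, held 77.3, 95.2 and 46.2 against 29.3, 5.38, 33.3 and 6.60. Grid1, a delta-type glutamate receptor, was at 27.3 ± 6.13 (SD, n = 3) and 4.53 ± 3.17 (SD, n = 4). Erc2, a scaffold of the presynaptic active zone, was at 16.1 ± 3.03 and 4.93 ± 4.42, and Ptprg, another receptor tyrosine phosphatase, at 13.9 ± 4.27 and 4.83 ± 4.46. Together the 6 windows held 316, 335 and 212 against 71.8, 32.3, 63 and 49.5 per 1000. The rest of the chromosome beyond 1 Mb was lower in the deficient cells, at 6.18 ± 0.566 (SD, n = 3) against 8.22 ± 0.209 (SD, n = 4) per 1000 per Mb. Both are shares of the same total, so a higher share in the RDC windows by itself lowers the rest.

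The deficient cells in DMSO, of the same collection, show these measures without aphidicolin. Replicate 2 of the 4 DMSO libraries held 1139 junctions against 8323, 9758 and 8872 in the others and stood apart in many measures, so values are given without it. Translocations made up 9.03% ± 1.74 (SD, n = 3) and junctions within 1 Mb 89.2% ± 1.89 (SD, n = 3), so that the near class was larger still than with aphidicolin. Direct joining beyond 1 Mb was 15.8% ± 0.839 (SD, n = 3), and the mean bait loss was 40.8 bp ± 3.11 (SD, n = 3). The mean log2 ratio of RDC to other windows was 0.00, and Nrg3 was at 17.2 ± 10.1 per 1000 (SD, n = 3). Thus in direct joining and bait-end loss the DMSO libraries lay on the deficient side of the wild-type values, whereas in RDC density they overlapped the wild-type aphidicolin libraries (exact permutation p = 0.343 for each list, which 3 libraries against 4 can take no lower than 0.0571). With all 4 libraries translocations made up 11%, 12%, 8.19% and 7.88%. Direct joining with all 4 was 21.4% ± 11.3 (SD, n = 4), with replicate 2 at 38.4%, and overlapped the wild-type libraries (exact permutation p = 0.629), so that its place on the deficient side rests on leaving that library out. The mean bait loss with all 4 was 44.6 bp ± 8.12 (SD, n = 4) and stayed below the wild-type values (exact permutation p = 0.0286).

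The prey of translocations differed in its place relative to genes. Prey within gene bodies made up 48.0%, 51.9% and 48.3% in the deficient libraries and 42.6%, 42.3%, 41.4% and 43.6% in the wild-type libraries. Prey within 2 kb of a protein-coding start site made up 3.97%, 4.46% and 3.53% against 5.89%, 6.08%, 5.27% and 6.58%. Both were without overlap, in opposite directions. With only bait ends of 0 to 19 bp lost, prey near start sites overlapped, at 3.99% ± 0.287 (SD, n = 3) against 4.80% ± 1.26 (SD, n = 4, exact permutation p = 0.343). Prey within gene bodies stayed without overlap. Chromosome 8, which the study describes as gained in the deficient line, held 4.79%, 5.87% and 5.55% of translocations against 5.12%, 5.41%, 5.02% and 4.92%, and the groups overlapped. Of the 20 chromosomes compared, 6 were without overlap. Chromosomes 12 (5.05% against 4.29% by group mean), 18 (3.91% against 3.06%) and 19 (3.16% against 2.14%) were higher in the deficient cells. Chromosomes 7 (4.83% against 5.64%), X (3.13% against 4.24%) and Y (0.483% ± 0.315 against 2.03% ± 0.874, SD) were lower. The sex and chromosome number of the wild-type cells were not used here. The plus strand share was 49.1% ± 1.19 (SD, n = 3) against 49.7% ± 1.03 (SD, n = 4).

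Certain positions recurred as prey. Of the 18 sites that held at least 10 translocations in at least 3 libraries, 2 resembled the guide, with 4 mismatches each and a cut position that fell 0 or 1 bp from the most frequent junction. Such a match was found near 1 of 12892 other junction positions (0.00776%). Both are shown on the plus strand with the bases that differ from the guide in capitals, and substitutions are counted from 1 at the guide's 5′ end.
site in Trps1: TTTttagttatagtagAggcagg
site in Plgrkt: ATctAagCtatagtaggggctgg
The first, chr15:50778846-50778868, carries G1T G2T C3T G17A and held 1, 1 and 5 junctions in the deficient libraries and 0, 0, 3 and 0 in the wild-type libraries. The second, chr19:29363285-29363307, carries G1A G2T T5A T8C and held 4, 2 and 4 junctions in the deficient libraries and none in the wild-type libraries. It reached the 10 junctions that define a recurrent site through the deficient libraries alone, so these counts are a description. At this site all bait ends had lost fewer than 20 bp.

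Other recurrent sites had no such match. The site at chr16:75718921, in no annotated gene, held 7.53, 8.45 and 6.71 junctions per 1000 translocations in the deficient libraries and 1.05, 2.46, 1.95 and 3.92 in the wild-type libraries, and its window was higher in the deficient cells with a limma adjusted p of 0.0170. All 67 of its junctions lay on 1 strand and 92.5% carried an insertion. In the opposite direction, the site of the annotated gene Gm10800 on chromosome 2 held 1.37, 2.35 and 3.13 against 14.7, 13.0, 13.7 and 24.0, over 138 positions. Of its 176 junctions 58.5% lay on the plus strand, and 94.9% had bait ends with 20 bp or more lost. Whether they mark a break at this site was not tested. Its window at chr2:98000001-99000000 was higher in the wild-type cells with a limma adjusted p of 1.16e-26, as the only 1 of the 2353 windows (0.0425%) called in that direction with no minimum. The other 3 of the 4 windows that were higher in the wild-type cells among the 19 lay on chromosomes 7 and 9. They reached 20 junctions mainly through the wild-type libraries, and with no minimum they were not called (limma adjusted p = 0.556, 0.265 and 0.119).

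The chr6 bait is the only other break with both genotypes in aphidicolin alone, with 1 deficient and 3 wild-type libraries, so no test was made. The deficient library held 10845 junctions and the wild-type libraries held 1580, 923 and 1958. Reads whose pairs could not be merged made up 11.7% of junctions against 42.0%, 27.5% and 57.1%, and their part in the values below was not tested. Translocations made up 40.3% in the deficient library and 78.2%, 72.4% and 82.7% in the wild-type libraries. Direct joining beyond 1 Mb was 20.7% against 47.5%, 33.7% and 32.7%, and the median deletion was 726 bp against 26, 35.5 and 23 bp. In these 3 measures the deficient library lay on the same side as at chr14. Insertions stood lower in the deficient library, at 18.9% against 36.7%, 33.1% and 47.3%. Mean bait-end loss ran the other way from chr14, at 18.0 bp against 14.6, 15.2 and 9.13 bp, but the baits differ in length. Ends with 60 bp or more lost, common at chr14, made up 1.31% against 1.07%, 1.05% and 1.08% here. Ends exactly at the cut were fewer in the deficient library, as at chr14, at 4.15% against 28.9%, 28.0% and 12.2%. RDC windows on neither chr6 nor chr14 held 7.50% of translocations against 4.21%, 2.99% and 4.2%. The RDC windows of chr14 were left out of this share, although translocations to chr14 stayed in the total.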

How the data were processed

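Junction tables were deposited by the authors, 1 per library and with no normalization. Their columns hold coordinates of bait and prey on mm10 and in the read, along with other filter flags. Per the methods, reads were demultiplexed, trimmed, aligned to GRCm38/mm10 with Bowtie2 and filtered with the HTGTS pipeline, with versions not given in the sources used here. The members, lists and tests were chosen with earlier results of these data known. Tables were read with Python 3.11.15, pandas 2.3.3, NumPy 2.4.6 and pysam 0.24.0. Microhomology is the overlap of bait and prey in the read. Genes are from GENCODE, and 9 gene groups were described.

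Exact permutation tests, two-sided and over libraries, used SciPy 1.17.1. Windows with at least 20 junctions in sum were fitted with limma 3.58.1 in R 4.3.3 on log2 of junctions plus 0.5 per 1000 translocations, with a threshold of 0.05. On 2353 simulated windows with 200 changed, 62 (4-fold) and 98 (8-fold) of the changed windows reached 20 junctions, and 88.7% and 100% of these were recovered. In the simulations 89 and 124 windows reached that minimum, against 19 in the data. Reads carry no molecular identifiers, so intervals cover counting error only. Replicate numbers shared between the groups did not pair the libraries, with correlations of deviations of 0.23, -0.19 and -0.09 for numbers 1 to 3. Figures were drawn with Matplotlib 3.10.9. Named genes were the 14 RDCs listed for the wild-type experiments, Nrg3, Ctnna2, each window past the threshold, and RDC windows with at least 20 junctions. Recurrent sites and RDCs named only for lack of overlap were chosen after their values were seen. Alternatives changed the distance limit, window, denominator, filters, replicate block and libraries used. The limit to bait ends with 0 to 19 bp lost was chosen after seeing the data.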

Additional observations from a re-analysis of the deposited data

Results flagged for a closer look

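In the deficient DMSO library of replicate 2, which holds 1139 junctions and 137 translocations, 14 measures lay far from the other 3 libraries. Direct joining was 38.4% beyond 1 Mb, 41.3% among translocations and 9.12% within 1 Mb, and translocations exceeded the near class by 32.2 percentage points. Direct joining was 0% at bait ends exactly at the cut and 19.2% with 1 to 19 bp lost, and 2 bp microhomology made up 12.8%. Insertions made up 42.9%, and those of 10 bp or more 17.5%. Deletions under 200 bp made up 37.0% of junctions, the median deletion was 209 bp, and bait-side inverted junctions of 200 bp to 10 kb made up 3.60%. RDC density was 0.142 per 1000 translocations per Mb, with a log2 ratio to other windows of -1.57. In the wild-type aphidicolin group only replicate 4 stood apart, with direct joining of 76.1% at bait ends exactly at the cut. These 15 cases come from 76 groups of values, of which chance would single out about 1 in 20.

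Of 126 measures compared between the baits, 10 had no overlap between the groups at chr14 while the single deficient chr6 library lay outside all 3 wild-type chr6 libraries on the opposite side. This was not tested. For bait-end loss, the deficient chr6 value minus the wild-type chr6 mean was 5.05 bp for the mean, 7.33 bp for the median, 8.90 percentage points for ends with 20 bp or more lost and 0.244 points for ends with 60 bp or more lost. It was 3.03 points for bait-chromosome junctions beyond 1 Mb. For bait-side junctions in the same orientation it was 1.69 points within 1 Mb and 1.24 points at 200 bp to 10 kb. Microhomology of 7 bp differed by 1.65 points beyond 1 Mb and by -2.64 points within 1 Mb, and the share of translocations on chromosome 7 by 0.271 points. Measures whose chr6 means ran the other way with the deficient library inside the wild-type range, such as direct joining among translocations minus within 1 Mb, are not among the 10.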

How the results depend on the processing

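Over 28 results and 374 alternative values, 333 were counted as unchanged. For the 15 results tested over libraries this meant direction only, since no exact permutation p could pass 0.05. For counts of windows it meant a count close to the main count. For named windows it meant the same direction and a limma adjusted p under 0.05. Of 15 results tested over libraries 12 were without overlap, and 164 of their 169 alternatives also were. Directions turned for direct joining among translocations minus within 1 Mb with 0 to 19 bp lost (-26.1 points), insertions under that limit (0.745), bait loss at direct joins (4.67 bp), the density per 1000 of all junctions for CTRs (-0.0631) and TTRs (-0.0472), and the plus strand without deficient replicate 1 (0.0866, against -0.961 without replicate 2). The cause was not tested, except that changing the denominator brings in the junctions near the break. Windows higher in the deficient cells numbered 3 (2 of them RDCs) with 2 Mb windows and 2 (1 an RDC) with only deficient replicates 1 and 2, which share a sequencing run. Windows higher in wild-type cells numbered 1 with no minimum of junctions. Leaving out 1 library gave 2 to 6, 1 to 4 for RDC windows and 4 to 5 for wild-type. Leaving out any 1 of the deficient libraries gave 2 windows, 1 of them an RDC, Auts2. Ptprt and Naaladl2 then fell under 20 junctions, while Cdh13 was tested and not called without deficient replicate 1 or 3 (limma adjusted p = 0.115 and 0.0597). The named windows stayed called in 102 alternatives and lost the call in 24. With the replicate block, 0 of 28 results turned, the difference in translocations was -42.1 points (exact permutation p = 0.25, the smallest 3 pairs allow), and Auts2 rose by 2.39. Few junctions per window limit the test of single RDCs.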
